A study of Mus musculus with 89 samples.

Results

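Transcription was compared between mouse embryonic stem cells (ESCs) that lack functional Nr5a2 and control ESCs, both grown in 2i/LIF. The 6 libraries were taken by their labels, 3 of the state −N (Esrrb present, Nr5a2 disrupted) and 3 of the state +E+N (both factors present), out of 20 RNA-seq libraries and 89 samples in the series. The series measured gene expression and transcription factor binding in ESCs after loss of Esrrb, Nr5a2 or both. All 6 libraries come from EKOiE ESCs, in which the endogenous Esrrb gene was knocked out and Esrrb is supplied by a doxycycline (Dox)-inducible transgene, and all 6 cultures received Dox at 1 µg/ml for 2 days. The −N cells are the EKOiE NrKO line, in which Cas9 disrupted exon 4 of Nr5a2 on both alleles. 2i/LIF is a serum-free medium with an inhibitor of Mek, an inhibitor of Gsk3 and the cytokine LIF. The methods describe NrKO cells as 2 selected clones and tie RNA-seq of the edited alleles to clone 4, while the labels give no clone. In these libraries the loss of Nr5a2 and the history of a clone therefore cannot be told apart. The study also repaired an Nr5a2 allele of clone 4, and self-renewal was rescued. Its qPCR found that repair also reversed expression changes seen after loss of both factors. No label of the RNA-seq libraries names a repair line. The study describes the replicates as independent experiments, and p-values measure the spread between them.

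Nr5a2 (also called Lrh-1) is an orphan nuclear receptor that binds DNA as a monomer at an extended receptor binding element, and the orphan receptor Esrrb binds nearly the same sequence. In the liver, gut and gonad Nr5a2 is known for controlling bile acid and steroid metabolism, and in the early embryo and in ESCs for sustaining Oct4 expression. The exon that was disrupted encodes the first part of the DNA-binding domain. The gene, ENSMUSG00000026398, occupies chr1:136842571-136960448 of mm10 on the minus strand, and exon 4 of its transcript with 9 exons is at chr1:136944959-136945077. It is 119 bp long, which leaves a remainder of 2 bases after whole codons. It is shown to give the reader the edited site, 5′ to 3′ on the strand of the gene, with the exon in capitals and 20 intronic bases on each side in lower case.
Nr5a2 exon 4: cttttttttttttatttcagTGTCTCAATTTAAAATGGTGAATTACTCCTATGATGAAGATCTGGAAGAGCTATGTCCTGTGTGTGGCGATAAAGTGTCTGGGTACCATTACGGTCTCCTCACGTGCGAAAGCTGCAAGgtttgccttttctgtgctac

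Nr5a2 transcript was at 78.7, 69.7 and 61.3 CPM (the count scaled to the library total, after TMM scaling) in the +E+N libraries and at 76.8, 63.2 and 63.0 CPM in the −N libraries. The 2 groups overlapped, and the log2 fold change was −0.05 (SE 0.21, edgeR adjusted p = 0.92). A count over the whole gene includes transcripts of the disrupted alleles and does not check the deletion in exon 4. Esrrb was at 506, 601 and 599 CPM in +E+N and at 406, 522 and 519 CPM in −N. These ranges also overlapped (log2 fold change −0.24, SE 0.16, edgeR adjusted p = 0.40).

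Library totals lay between 26653035 and 32526534 counts, and the 10 most abundant genes held 5.72% to 6.4% of each. Replicates of a group differed by more than sampling noise (chi-square of the counts of 2 replicates, divided by its degrees of freedom, from 5.48 to 18.9). On the first principal component of the 12 libraries of 2i/LIF, which held 57.5% of the variance, the −N libraries lay between 2.16 and 9.0 and the +E+N libraries between −38.9 and −36.0. The 8 Y-linked genes listed had at most 1 count in each of the 6 libraries. These counts alone do not give the sex of the line, which was not tested.

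Loss of Nr5a2 changed 524 of 14355 genes tested (3.65%) at an edgeR adjusted p under 0.01 and a fold change over 1.5. Of these, 231 rose (1.61% of genes tested) and 293 fell (2.04%). The rises were from a low level, with a median of 2.51 CPM in +E+N and 7.85 CPM in −N, and the falls from a higher one, with medians of 15.7 and 6.54 CPM. The changes exceeded 4-fold for 88 rises and 40 falls, and 8-fold for 38 rises and 11 falls. The median log2 fold change was 1.63 over the rises, −1.15 over the falls and −0.003 over all genes tested. In 4649 of the genes tested (32.4%) the 2 groups of 3 libraries did not overlap, and this held for all 524 called genes. The limits of a call favour separate groups, so the lack of overlap adds no support to a call. With the replicate number as a block, 1115 genes were called, 502 higher and 613 lower, and 523 of the 524 were among them. The count was 307 without −N replicate 1, 264 without +E+N replicate 2, 243 without −N replicate 2 and 292 without +E+N replicate 3.

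Where the mean count over the 6 libraries was at least 100, the largest rises were in H19 and Igf2, neighbouring imprinted genes of chromosome 7. H19 (chr7:142575529-142578143), a non-coding RNA, was at 1.45, 1.21 and 1.97 CPM in +E+N and at 265, 241 and 229 CPM in −N. Igf2 (chr7:142650766-142666816), which encodes a fetal growth factor, was at 0.756, 0.697 and 0.898 CPM in +E+N and at 71.6, 64.2 and 53.7 CPM in −N. Every −N library was far above every +E+N library for both genes, with log2 fold changes of 7.30 for H19 (SE 0.35, edgeR adjusted p = 2.7e-07) and 6.32 for Igf2 (SE 0.23, edgeR adjusted p = 3.1e-08). Peg10, an imprinted gene of retrotransposon origin that is needed for the placenta, was at 12.7, 11.7 and 18.5 CPM in +E+N and at 335, 340 and 382 CPM in −N (log2 fold change 4.62, SE 0.50, edgeR adjusted p = 0.00012). In −N the level of each of these 3 genes was at least 53.7 CPM in every library. Gjb2, a gap junction protein, rose from at most 0.518 CPM to between 6.61 and 9.92 CPM, and Slc13a4, a sulphate transporter, from at most 0.898 CPM to between 9.73 and 13.3 CPM.

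The remaining genes among the 12 largest rises were signalling, lineage and cytoskeletal genes. Lefty1, a secreted inhibitor of Nodal, was at 6.11, 6.46 and 4.32 CPM in +E+N and at 61.7, 84.3 and 60.5 CPM in −N. Gata2, a transcription factor of trophoblast and blood, was at 0.851, 4.00 and 2.04 CPM in +E+N and at 21.9, 27.3 and 20.2 CPM in −N. Lef1, a DNA-binding partner of β-catenin, was at 0.946, 0.587 and 0.656 CPM in +E+N and at 9.07, 5.41 and 5.39 CPM in −N. The groups did not overlap for any of the 3, and the log2 fold changes were 3.61, 3.36 and 3.16. Arhgef6, a guanine nucleotide exchange factor, rose by 3.35 on the log2 scale, Rhox6, an X-linked homeobox gene, by 2.98, Anxa3, an annexin, by 2.83 and Zscan4e, a two-cell-stage gene, by 2.83.

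**Figure D1:**
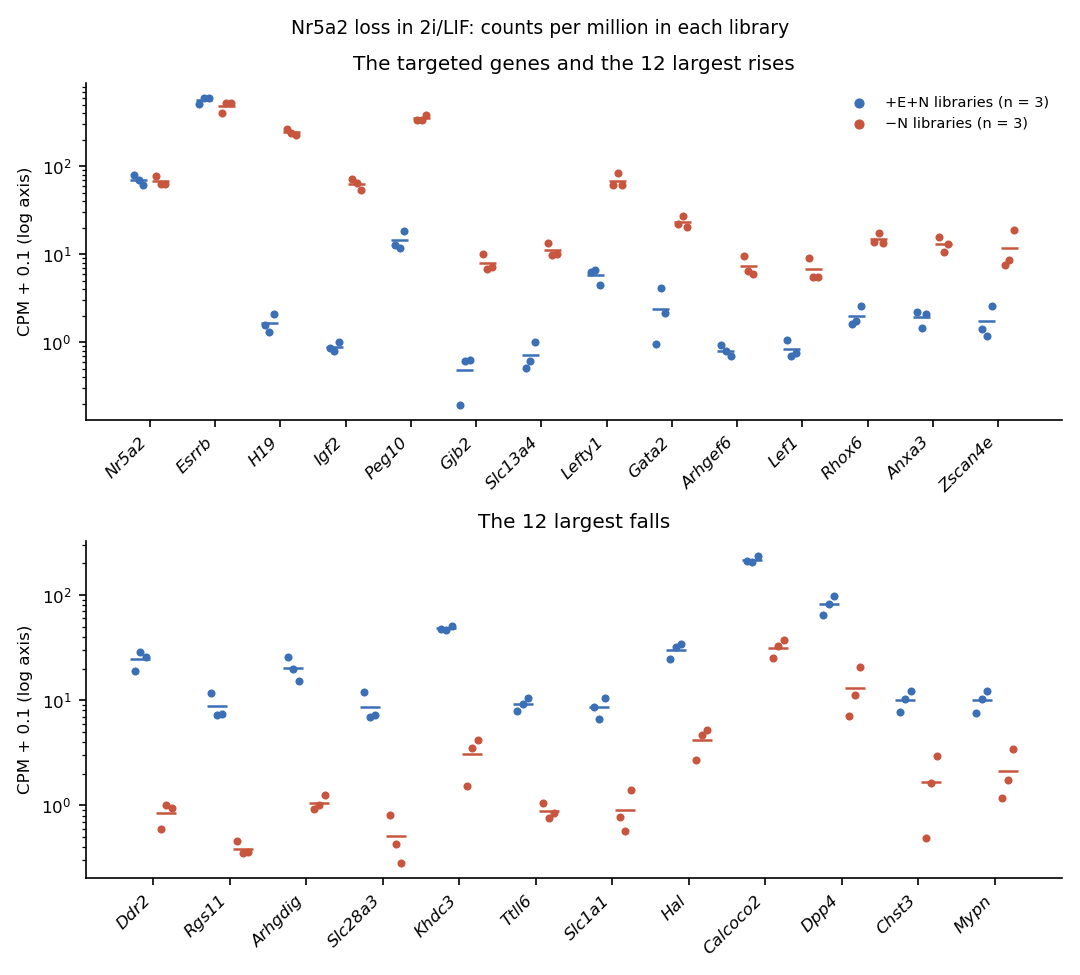
CPM plus 0.1 on a log axis for Nr5a2, Esrrb and the 12 largest rises (top) and for the 12 largest falls (bottom) whose mean count was at least 100, with a point for each library and a bar at the mean of each group of 3. The points of −N and +E+N overlap for Nr5a2 and Esrrb and lie apart for the 24 genes chosen by size of change.

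Under the same limit on counts, the largest fall was in Ddr2 (chr1:169972307-170110762), a receptor kinase for collagen. Its level was 18.9, 28.7 and 25.7 CPM in +E+N and 0.498, 0.908 and 0.849 CPM in −N (log2 fold change −5.02, SE 0.27, edgeR adjusted p = 6.8e-07). Rgs11, a regulator of G protein signalling, was at 11.6, 7.19 and 7.32 CPM in +E+N and at 0.355, 0.254 and 0.259 CPM in −N. Arhgdig, which overlaps Rgs11 on the opposite strand and encodes a GDP dissociation inhibitor, was at 26.0, 19.9 and 15.1 CPM in +E+N and at 0.818, 0.908 and 1.14 CPM in −N. All 3 genes were close to 1 CPM or below it in every −N library. Slc28a3, a nucleoside transporter, fell by 4.38 on the log2 scale, Ttll6, a tubulin-modifying enzyme, by 3.53, and Slc1a1, a glutamate transporter, by 3.39.

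Khdc3 (Filia; chr9:73101836-73104438), a component of the subcortical maternal complex of the oocyte that is also expressed in ESCs, was at 47.4, 46.5 and 50.4 CPM in +E+N and at 1.42, 3.41 and 4.06 CPM in −N. Calcoco2, an autophagy receptor, had a mean of 217 CPM with an SD of 16.0 over the 3 +E+N libraries, and was at 25.1, 32.8 and 37.1 CPM in −N. The log2 fold changes were −4.02 for Khdc3 (SE 0.27, edgeR adjusted p = 3.3e-06) and −2.78 for Calcoco2 (SE 0.17, edgeR adjusted p = 1.8e-06), and neither gene overlapped between groups. Hal, which degrades histidine, fell by 2.88 on the log2 scale, Dpp4, a cell surface peptidase, by 2.66, Chst3, a sulphotransferase, by 2.65, and Mypn, a muscle sarcomere protein, by 2.31. The calls for Chst3 and Mypn were lost without −N replicate 2, and that for Chst3 also without +E+N replicate 2 or 3 (log2 fold changes between −3.38 and −2.19 for Chst3).

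The motifs TCAAGGTCA and TCAAGGCCA were searched on both strands of RefSeq promoter windows (GRCm38.p6, from 250 bases before to 50 after the annotated start), since the 2 receptors bind this element with a preference at its seventh base. In the study, Esrrb favoured T at this base, and Nr5a2 favoured C more strongly. A match to either was found in 331 of 32851 windows (1.01%) and in 84 of 10446 tested genes with a window (0.804%). There was a match in 0 of 167 rises with a window and in 7 of 218 falls (3.21%). Of these, 6 held TCAAGGTCA, which was 2.75% of falls against 0.33% of tested genes with a window. The other, with TCAAGGCCA, made up 0.46% of falls against 0.49% of tested genes. Khdc3 was the only one of the 12 largest falls with a match, and the other genes below were chosen after their values were seen. The falls Tmem191c and Defb42 also held TCAAGGTCA and are not shown, and of the 2 matches in promoter windows of Sgk1 the one 104 bases before its start is shown. Each line gives the motif in capitals with 20 bases on each side, on the strand where it reads in this direction, to show the element beside genes that fell.
Khdc3: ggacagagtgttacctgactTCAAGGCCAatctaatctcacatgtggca
Bhmt: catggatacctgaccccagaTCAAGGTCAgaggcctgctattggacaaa
Gpr161: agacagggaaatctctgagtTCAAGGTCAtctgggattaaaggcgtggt
Sgk1: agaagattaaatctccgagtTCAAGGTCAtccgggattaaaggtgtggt
Hcn2: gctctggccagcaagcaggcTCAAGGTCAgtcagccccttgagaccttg
The printed stretches of Gpr161 and Sgk1 are identical at 41 of 49 bases, the most of any pair of matches in the falls. The stretch of Tmem191c is identical to each of these at 27 of 49 bases, the next most. The matches may therefore not be independent. The match in Khdc3 lies 208 bases before the start and reads against the gene. The fold changes of these genes on the log2 scale were −4.02 for Khdc3, −1.44 for Bhmt (a methyltransferase of homocysteine metabolism), −1.49 for Gpr161 (a receptor of the primary cilium), −0.74 for Sgk1 (a serum- and glucocorticoid-regulated kinase) and −1.08 for Hcn2 (a cation channel). A match is a description of these letters and not a binding site, and binding was not analysed here.

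The test called 1 of 11 core pluripotency factors and 4 of 21 naive pluripotency genes, against 3.65% of all genes tested. An unadjusted edgeR p under 0.05 was found for 4 and 11 of them, and for 3594 of the 14355 genes tested. The background for each list below is 231 rises and 293 falls among these 14355 genes, or 502 and 613 with the replicate block. Among the core factors 1 rose (Lin28a), 0 fell and the median log2 fold change was −0.03. The study names Lin28 among genes of the formative or primed state that rose after loss of both factors. Pou5f1 (Oct4) was at 1373, 1323 and 1275 CPM in +E+N and at 1248, 1253 and 1259 CPM in −N (log2 fold change −0.08, edgeR adjusted p = 0.77). Nanog was at 772, 927 and 1000 CPM in +E+N and at 564, 632 and 679 CPM in −N. Its groups did not overlap (log2 fold change −0.53, edgeR adjusted p = 0.0041), but it stayed under the fold limit. Lin28a, an RNA-binding protein, rose from between 43.9 and 74.1 CPM to between 96.2 and 133 CPM. Its call was lost without −N replicate 1 or 2 or +E+N replicate 2 or 3 (log2 fold changes of 0.93 to 1.35 over the 6 libraries left out).

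Of 21 naive pluripotency genes, 2 rose and 2 fell, with a median log2 fold change of −0.24. Only 5 of the 21 were above 0. The value of Esrrb, which a transgene supplies in these cells, was also −0.24. Dppa3 (Stella), a maternal factor that protects DNA methylation marks, was at 14.8, 11.2 and 7.70 CPM in +E+N and at 78.5, 39.8 and 24.6 CPM in −N. The lowest −N library was above the highest +E+N library, and replicate 1 was the highest in both groups. Gbx2, a homeobox factor, rose by 0.88 on the log2 scale. Prdm14, a repressor of primed genes, and Tbx3, a T-box factor, fell by 0.60 and 0.59, and Tbx3 was not called with the replicate block (−0.58) or with DESeq2. Among 21 formative and primed epiblast genes, 4 rose (Lef1, Foxp1, Dnmt3b and Car4) and 0 fell, with a median of 0.26. Log2 fold changes were above 0 for 17 of the 21, and the lowest was −1.69, which was not called. Limma on log2(TPM + 1) and the fit of the 2 compared states alone each called 1 fall in this list. Car4, a carbonic anhydrase, had 0 counts in every +E+N library and 39, 19 and 19 counts in −N, at least 27.3-fold higher by a floor of 3 counts per group. Among 18 DNA methylation genes, edgeR called the de novo methyltransferase Dnmt3b (log2 fold change 0.79), and 3 rose with the block or with DESeq2.

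The Wnt list held 24 genes tested, with a median log2 fold change of 0.48. Of these 5 rose and 0 fell (10 and 0 with the replicate block), against 1.61% and 2.04% of all genes tested without the block. Besides Lef1, the rises were Lgr5, the R-spondin receptor, Dkk1, a secreted Wnt inhibitor, Wls, which carries Wnt ligands to the cell surface, and Cdx1, a homeobox factor. Dkk1 was at 1.39, 0.514 and 0.483 CPM in +E+N and at 4.34, 5.99 and 3.73 CPM in −N. Wls was at 3.53, 2.39 and 2.28 CPM in +E+N and at 12.5, 10.4 and 11.1 CPM in −N. Lgr5 rested on 3, 1 and 0 counts in +E+N and 26, 24 and 12 counts in −N, a ratio of 16.5 (95% counting interval 6.12 to 62.3). The calls for Dkk1 and Lgr5 were lost without +E+N replicate 2 or 3 or −N replicate 2, and that for Lgr5 also without −N replicate 1 (log2 fold changes of 2.28 to 3.22 and 3.39 to 5.08 over the 6 libraries left out). Ctnnb1 (β-catenin) itself was at 793 to 808 CPM in +E+N and 870 to 878 CPM in −N, a log2 fold change of 0.13 that did not pass the test.

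Of 20 Nodal and activin pathway genes 3 rose and 0 fell (median 0.04). Lefty2, like Lefty1 a Nodal inhibitor, was at 9.55, 8.33 and 6.70 CPM in +E+N and at 35.3, 41.7 and 27.5 CPM in −N, with no overlap between the groups. Among 19 Fgf and Erk genes 2 rose and 0 fell (4 and 0 with the block): Fgfbp1, which carries Fgf ligands, and the receptor Fgfr2, by 2.37 and 1.94 on the log2 scale. Bmp8b, a Bmp ligand, was the only rise among 17 Bmp pathway genes (3 with the block). Among 27 nuclear receptors, 2 rose and 0 fell (4 and 2 with the block): Rarg, a retinoic acid receptor, by 0.74, and Pparg, a regulator of fat storage and placenta, which had 0, 0 and 1 counts in +E+N and 27, 23 and 21 in −N. The calls for Fgfr2, Bmp8b and Rarg were each lost in 3 or more of the 6 fits that left out a library. Of the 9 tested targets known for Nr5a2 in liver, gonad and gut, edgeR called 0 with or without the block and DESeq2 called 0. An unadjusted edgeR p under 0.05 was found for 4 of them, and for 3594 of all 14355 genes tested.

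Genes of trophectoderm and placenta were among the rises. Of 13 trophectoderm genes tested, 5 rose and 0 fell, against 1.61% and 2.04% of all genes tested. The median log2 fold change of the list was 0.64. The keratin genes Krt8 and Krt18, which form the filaments of simple epithelia, were at 10.5, 5.87 and 8.36 CPM and at 3.66, 4.18 and 5.59 CPM in +E+N. In −N, Krt8 was at 47.8, 42.0 and 46.0 CPM and Krt18 at 31.9, 29.7 and 30.8 CPM. Both genes were separate between groups, as were Krt7 (1.35 to 1.47 against 5.83 to 7.27 CPM) and Gata2. The homeobox factor Cdx2, which defines the lineage, was at 2.55, 0.661 and 1.04 CPM in +E+N and at 14.8, 4.43 and 5.10 CPM in −N, and passed the limits with the block (edgeR adjusted p = 0.00094) but not without it (edgeR adjusted p = 0.015). Eomes, Gata3, Tfap2c and Tead4 had log2 fold changes of −0.73, 0.30, −0.29 and −0.12 and were not called. Plac1, an X-linked placental gene, had 0, 0 and 1 counts in +E+N and 35, 21 and 18 in −N.

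Other placental genes, chosen after their values were seen, were also higher. Gcm1, a factor of syncytiotrophoblast, had 2, 1 and 1 counts in +E+N and 85, 71 and 64 in −N, a ratio of 58.4 (95% counting interval 22.5 to 216). Synb, an envelope-derived fusion protein, had 0 counts in each +E+N library and 19, 12 and 6 in −N, at least 13.1-fold higher. Its call was lost without −N replicate 1 or 2 or +E+N replicate 2 or 3, where the adjusted p lay between 0.010 and 0.016, and with limma. The X-linked genes Nrk, Zfp36l3 and Amot rose by 2.02, 2.50 and 2.04 on the log2 scale. In bulk samples, more cells of a type and more RNA per cell cannot be told apart.

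Of 45 imprinted genes tested, 8 rose and 1 fell (12 and 2 with the block), against 1.61% and 2.04% of all genes tested without it. The median log2 fold change of the list was 0.19. Beside H19, Igf2 and Peg10, the rise of Slc22a3, an organic cation transporter, was from 0, 0 and 3 counts to 90, 83 and 68 counts, a ratio of 85.4 (95% counting interval 28.9 to 417). Peg3, Mest and Sfmbt2, which were named after their values were seen, rose by 1.37, 1.27 and 1.77. Most imprinted genes were not called, and the 2 of highest count, Slc38a4 and Jade1, differed by 0.11 and 0.06 on the log2 scale.

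Two-cell-stage genes are expressed in rare ESCs that resemble the early embryo. All 13 such genes tested had fold changes above 1 and no overlap between groups, with a median log2 fold change of 2.06, but edgeR without the block called only Zscan4a and Zscan4e. With the block 10 rose and 0 fell, and DESeq2 called 9 rises. In FCS/LIF, a serum medium with LIF, the median log2 fold change of the same 13 genes was −0.90, and 0 were called. Zscan4c was at 2.36, 2.75 and 3.52 CPM in +E+N and at 8.92, 10.2 and 21.8 CPM in −N, and Zscan4f at 2.21, 3.38 and 5.21 CPM and at 11.8, 15.4 and 29.4 CPM. The third replicate of both groups was the highest for these genes. The Zscan4 copies are near-identical, so the division of reads between them by RSEM is uncertain, and the calls for Zscan4a and Zscan4e were lost in 5 of 6 fits that left out a library (log2 fold changes of 1.99 to 2.75 and 2.29 to 3.26).

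**Figure D2:**
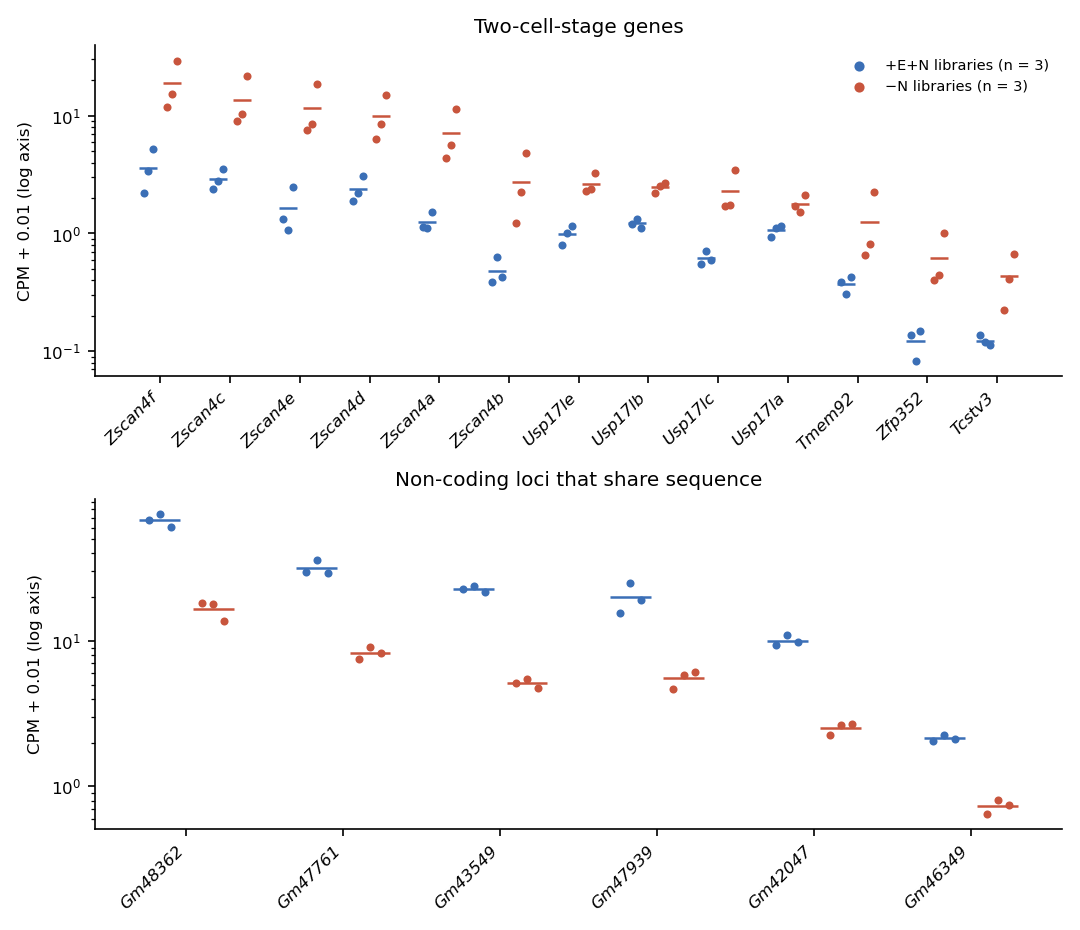
CPM plus 0.01 on a log axis for the 13 two-cell-stage genes (top) and for 6 non-coding loci that share sequence (bottom), with a point for each library and a bar at the mean of each group of 3. Every −N point lies above the +E+N points of the same gene in the top panel and below them in the bottom panel.

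Among the falls were 6 long non-coding loci on 5 chromosomes, chosen after their values were seen. Gm48362 was at 67.8, 74.9 and 60.9 CPM in +E+N and at 18.2, 17.9 and 13.7 CPM in −N. Gm43549 was at 22.7, 23.8 and 21.7 CPM in +E+N and at 5.12, 5.45 and 4.76 CPM in −N. The log2 fold changes of Gm43549, Gm48362, Gm42047, Gm47761, Gm47939 and Gm46349 lay between −2.15 and −1.55. All 15 pairs of their transcripts aligned, over 296 to 3209 bp at 98.4% to 100% identity, so the reads of one may be divided among several and the level of each is uncertain. In FCS/LIF the log2 fold changes of these 6 loci lay between −0.10 and 0.29.

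Genes of the remaining lists were mostly not called. Of all 14355 genes tested, 231 rose and 293 fell, or 502 and 613 with the block. Of 13 primitive endoderm genes, 3 fell and 0 rose (median −0.30): the basement membrane genes Lama1 and Sparc by 1.90 and 1.51 on the log2 scale, and the endocytic receptor Lrp2 by 0.77. Of 24 germline genes, Rhox6 and Rhox9 rose and Dazl, an RNA-binding protein of germ cells, fell by 1.49 (3 rose and 4 fell with the block). Khdc3 was the only call among 6 subcortical maternal complex genes, where Ooep differed by −0.52. Of 8 mesoderm genes 1 fell (Gsc; 1 rose and 1 fell with the block), and 1 of 7 neural genes rose (Sp8; 3 rose and 1 fell with the block). Among 22 adhesion and mesenchymal genes, Snai1 rose and Dpp4 and Icam1 fell (2 rose and 3 fell with the block). Icam1 was also the only fall among 19 LIF-Stat3 response genes (2 with the block). The Myc family gene Mycl was at 23.3, 22.0 and 22.8 CPM in +E+N and at 10.2, 7.84 and 8.16 CPM in −N, and was the only call among 25 cell cycle genes (3 rose and 1 fell with the block). Of 33 serine and one-carbon genes only Glul, glutamine synthetase, was called (log2 fold change 0.90). The edgeR test without the block called 0 of 28 glycolysis, 0 of 29 cholesterol, 0 of 21 p53 target and 0 of 17 integrated stress response genes, of which 5, 8, 6 and 4 had an unadjusted p under 0.05. Of all 14355 genes tested, 3594 had such a p. With the block edgeR called 0, 1, 2 and 2 genes of these 4 lists, against 1115 of all genes tested. DESeq2 called 0, 1, 1 and 1 of them, against 860 of all genes tested.

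**Figure D3:**
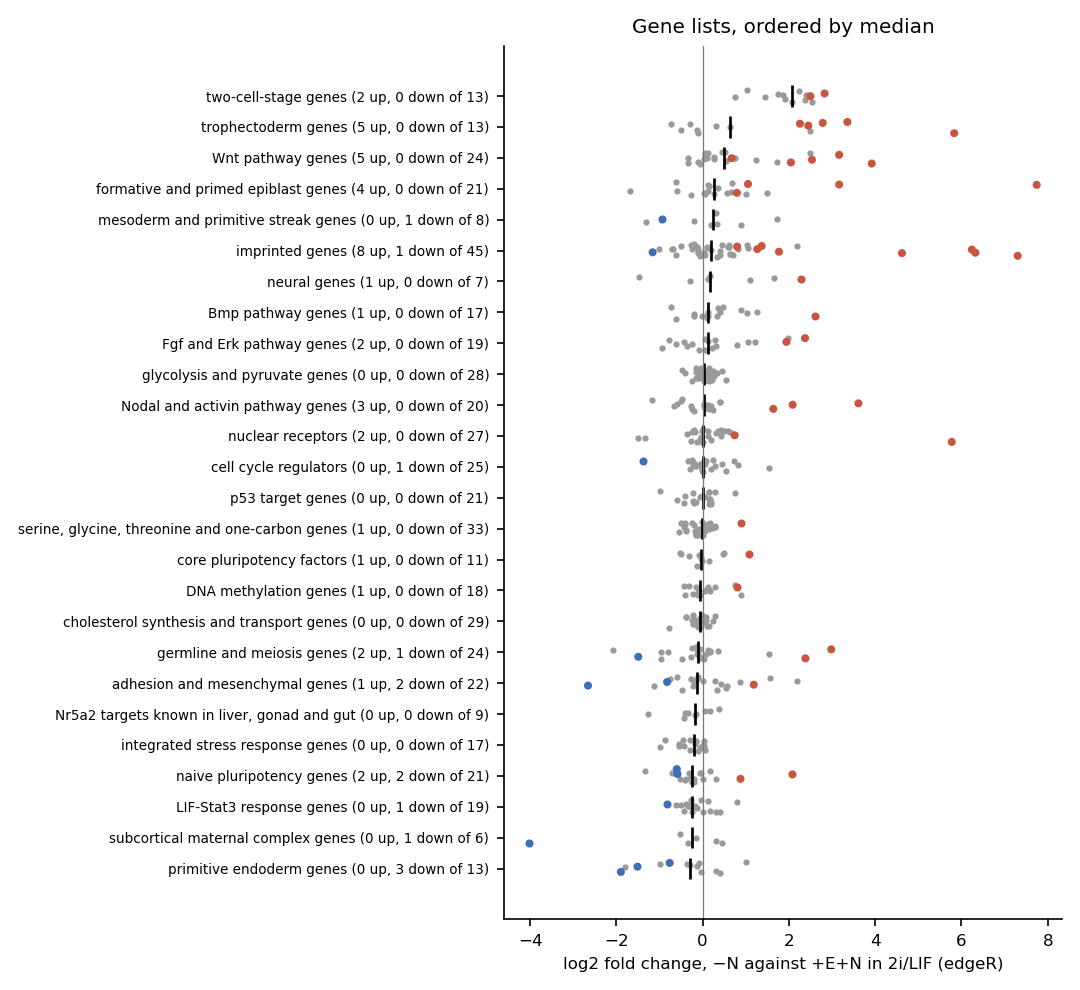
Log2 fold change between −N and +E+N in 2i/LIF for each tested member of 26 gene lists, ordered by the median of the list, which a black bar marks. Red points are called rises, blue points called falls and grey points genes not called, and the median was highest for two-cell-stage genes at 2.06.

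Some called genes lay beside each other, and no expected number of such pairs was computed. Of 14326 pairs of neighbouring tested genes, both were called in 62, and 55 of these (88.7%) changed in the same direction. Fold changes had the same sign in 57.6% of all pairs. Most of those hold genes not called, so this share is no background for the 62. Called neighbours were H19, Igf2 and Igf2os (antisense to Igf2), Rgs11, Arhgdig and Fam234a, Calcoco2, Ttll6 and Hoxb13, Krt8 and Krt18, Rhox6 and Rhox9, and Hoxc12 and Hoxc13. Some pairs overlap, such as Igf2 and Igf2os, and some have the same fitted log2 fold change, such as Gm21312 and Gm20765 (2.27 each). The members of such pairs may not be independent. The 5 X-linked genes Armcx1, Armcx2, Armcx3, Armcx4 and Armcx6 rose by 0.89 to 1.56 on the log2 scale, and Rtl8a, Rtl8b and Rtl8c by 0.77 to 1.99. These families hold similar copies. On the X chromosome, 33 of 525 genes tested rose (6.29%) and 4 fell (0.762%), against 1.43% and 2.09% on all other chromosomes, and the median X-linked log2 fold change was 0.075.

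The same loss was measured in cells depleted of Esrrb, as −E−N against −E, both after 2 days without Dox. These share no library with the comparison above. They are the NrKO and EKOiE lines again, so any other difference between the lines enters both contrasts. The 2 contrasts are therefore not independent measures of Nr5a2 loss. The contrast of −E−N with −E called 1883 genes (13.1%). Of the 524 genes, 520 (99.2%) changed with the same sign there and 459 were called in the same direction, which was 87.6% of the 524 and 24.4% of the 1883. The fold change was larger in Esrrb-depleted cells for 353 of the 524, and the median was 1.84 over the rises and −1.45 over the falls. H19 was at 3.57, 2.69 and 5.33 CPM in −E and at 710, 639 and 1338 CPM in −E−N, and Khdc3 at 12.8, 13.3 and 9.76 CPM and at 0.0652, 0.141 and 0.136 CPM. Both changes were in the direction seen with Esrrb present (log2 fold changes 7.85 and −6.67).

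The response to Nr5a2 loss differed with Esrrb at 44 genes (0.307%; edgeR adjusted p under 0.01, no fold limit), 14 of them above and 30 below, and 15 were among the 524. The 524 were chosen by a term of this difference, so the overlap of 15 is not independent of that choice. Esrrb and Dox changed together in these libraries. With the replicate block 324 genes passed. Krt8 rose more without Esrrb, from 3.64, 2.44 and 3.28 CPM in −E to 110, 92.0 and 185 CPM in −E−N (log2 fold change 5.37 against 2.45, edgeR adjusted p of the difference 0.0044). Lefty1 and Lefty2 rose less, by 1.15 against 3.61 for Lefty1, while Lefty2 had log2 fold changes of −0.24 against 2.09. Lefty1 was already at 22.4, 21.6 and 32.3 CPM in −E. Fabp3, a fatty acid binding protein, had log2 fold changes of 3.56 without and 0.59 with Esrrb, and Notch4, a Notch receptor, of −2.86 and 0.57. Loss of Esrrb alone (−E against +E+N) had already changed Fabp3 by −2.69, and Notch4 by 0.17, on the log2 scale.

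In FCS/LIF, the comparison of −N with +E+N had 2 libraries a group, with totals of 36514172 to 45443379 counts over its 4 states, and called 27 genes (0.173% of 15636). At an unadjusted p under 0.05 there were 2550. Of the 487 called genes of 2i/LIF tested there, 355 (72.9%) had the same sign and 475 had the larger fold change in 2i/LIF, with medians in FCS/LIF of 0.226 over the rises and −0.168 over the falls. These genes were chosen by their size of change in 2i/LIF, which favours a larger fold change there. Of the 27 genes called in FCS/LIF, 22 had the same sign in 2i/LIF. In all, 11 genes were called in the same direction in both media, which was 40.7% of the 27 and 2.10% of the 524: H19, Chdh, Mest, Tagln and Rhob, which rose, and Ddr2, Dpp4, Steap3, Mylpf, Kifc3 and Aes, which fell.

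The response differed between media at 120 of 16147 genes (0.743%; edgeR adjusted p under 0.01, no fold limit), 54 with the larger value in 2i/LIF and 66 with the smaller, and 99 of them were among the 524. The 524 were chosen by the 2i/LIF term of this difference, so the overlap of 99 is not independent of that choice. With the replicate block 686 genes passed. Where the mean count was at least 100, the largest differences were in Igf2 (5.45 on the log2 scale), H19 (5.09) and Slc13a4 (4.69) in one direction, and in Rgs11 (−4.47), Arhgdig (−4.42) and Caskin1 (−3.11), a synaptic scaffold gene, in the other. H19 and Igf2 were already at 212 and 331 CPM in the +E+N libraries of FCS/LIF and at 975 and 600 CPM in −N. Arhgdig was at 6.92 and 6.88 CPM and Rgs11 at 2.27 and 1.67 CPM in the +E+N and −N libraries of FCS/LIF, where neither was called. Medium and culture batch cannot be told apart here.

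**Figure D4:**
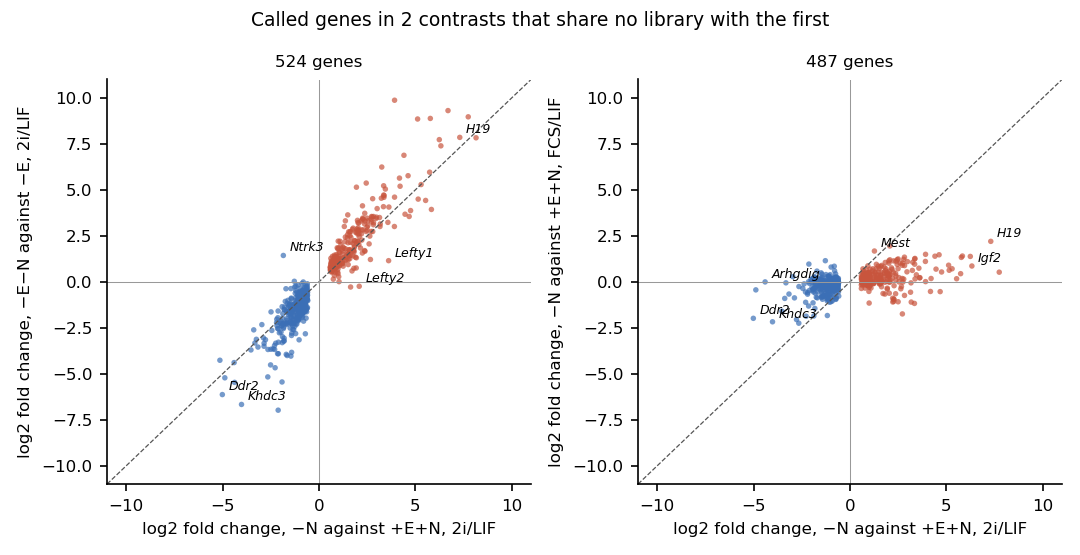
Log2 fold change of called genes in −N against +E+N in 2i/LIF (x axis) and in 2 contrasts that share no library with it (y axis), −E−N against −E in 2i/LIF for 524 genes (left) and −N against +E+N in FCS/LIF for 487 genes (right). Rises are red and falls blue, and the dashed line marks equal change, which most points in the right panel miss towards 0. The genes were chosen by their change on the x axis, which favours a smaller change on the y axis. All contrasts compare the same EKOiE and NrKO lines.

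Compared directly with loss of Esrrb, −N differed from −E at 565 of 14355 genes (3.94%), 249 higher and 316 lower (1241 with the replicate block). The −E cells lost Esrrb by 2 days without Dox, while the −N cells are an edited line kept on Dox. Factor, time since loss, Dox and line differ together here and cannot be told apart. The loss of either factor was measured against the same +E+N libraries, and the values are given side by side. The log2 fold changes after loss of Nr5a2 and of Esrrb were 7.30 and 1.32 for H19, 6.32 and 0.45 for Igf2, 3.61 and 2.18 for Lefty1, and 2.45 and −1.41 for Krt8. They were −5.02 and −0.23 for Ddr2, −4.02 and −2.01 for Khdc3, and −2.78 and −0.34 for Calcoco2.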

How the data were processed

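RNA was extracted with TRIzol and treated with DNase, and stranded poly-A libraries were sequenced with paired-end 150 bp reads. The authors aligned reads to mm10 with STAR and estimated expected counts and TPM with RSEM (tools and build also per the labels, which list Bowtie2). Both were deposited for 20 libraries, the expected counts without normalization between libraries and the TPM scaled within each library. Counts were used as whole numbers. The 12 libraries of 2i/LIF were fitted as 4 states by the quasi-likelihood test of edgeR 4.0.16 (R 4.3.3, TMM). A gene was tested when some state had 20 or more counts in each of its replicates. The 8 libraries of FCS/LIF were fitted likewise, and all 20 together as 8 groups for the difference between media. As in the study's methods, a call needed a change of more than 1.5-fold and a Benjamini-Hochberg adjusted p under 0.01, and for interactions the fold limit was dropped. The 6 libraries and the 27 gene lists were chosen with earlier results of these data known.

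Named genes were Nr5a2 and Esrrb, the 12 largest rises and falls that moved alike in all 3 same-numbered pairs with a mean of at least 100 counts, from each list at most 4 called members and the 2 of highest count not called, and the 3 largest interactions each way. Some genes under this rule are summarised by counts alone. Same-numbered −N and +E+N libraries deviated together (correlations 0.633, 0.207 and 0.536), as did −E and −E−N (0.502, 0.133 and 0.496), so blocked counts stand beside the results. The labels do not say what the numbers share. A fold against a group with 0 counts is a lower bound against 3 counts over the group, and counting intervals cover counting error only. Alternatives were DESeq2 1.42.0, its size factors, 2 other filters, the block, the compared states alone, limma 3.58.1 with a pseudocount of 1 or 0.1 on log2 TPM, an adjusted p under 0.05 and leaving out each library. The fits were tested on simulated data. Non-coding transcripts were aligned with BLAST+. One list member under the rule for named genes is not reported here. ChIP-seq was not analysed here.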

Additional observations from a re-analysis of the deposited data

Results flagged for a closer look

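The response to Nr5a2 loss in 2i/LIF differed with the presence of Esrrb at 44 genes and between media at 120 genes, by the test of the difference itself. Genes named in the report or under its rule are given here with that difference on the log2 scale, with no explanation. The response without Esrrb minus the response with Esrrb was 2.98 for Fabp3, 2.92 for Krt8 and 2.15 for Eif4g3, a translation initiation factor. It was −3.43 for Notch4, −2.70 for Slc15a1 (a peptide transporter), −2.58 for Gm13128, −2.46 for Lefty1, −2.33 for Lefty2, −2.24 for Hoxc12, −2.12 for Hoxb13, −1.02 for Ooep, −0.97 for Tead4 and −0.80 for Prdm14.

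The response in 2i/LIF minus that in FCS/LIF was 5.45 for Igf2, 5.09 for H19, 4.21 for Igf2os, 5.30 for Gcm1, 4.69 for Slc13a4, 3.39 for Lefty1, 3.21 for Lef1, 2.28 for Fgfbp1, 2.48 for Sp8 and 2.43 for Chdh. Zscan4a differed by 3.57, Rhox6 by 1.87, Lefty2 by 1.68, Wls by 1.67, Armcx2 by 1.67, Armcx4 by 1.53, Eif4g3 by 1.50, Amot by 1.45, Foxp1 by 1.23, Glul by 1.08 and Gbx2 by 1.02. For Car4, with 0 counts in the +E+N libraries of 2i/LIF, the fitted value of 7.46 is no bound on the difference. Genes with the lower value in 2i/LIF were Rgs11 (−4.47), Arhgdig (−4.42), Caskin1 (−3.11), Ddr2 (−3.05), Ttll6 (−1.95), Mycl (−1.46) and Sparc (−1.40). For the non-coding loci Gm48362, Gm43549, Gm47939, Gm42047 and Gm47761 the difference was −2.18, −2.17, −2.15, −2.11 and −2.10.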

How the results depend on the processing

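The 524 genes changed in 2i/LIF became 980 at an adjusted p under 0.05, 860 with DESeq2, 828 with no filter beyond 1 count, 1115 with the replicate block, 313 and 309 with limma on log2(TPM + 1) and log2(TPM + 0.1), and 243 to 442 with a library left out, where 1 arm of 2 libraries shares the spread of the other states. In the same order, the 44 genes that differed with Esrrb became 200, 303, 212, 324, 11, 7 and 7 to 52, and the 120 that differed between media 480, 456, 809, 686, 70, 56 and 47 to 126. The 27 of FCS/LIF became 193, 264, 548, 305, 9, 7 and 5 to 12, and 0 with the 2 compared states alone. The 565 that separated −N from −E became 1082, 931, 888, 1241, 374, 379 and 336 to 478. The 1883 of Esrrb-depleted cells stayed within 1.5 times under every alternative run (1362 to 1646 with a library left out). The cause of these shifts was not tested. In FCS/LIF the numbers give only 2 pairs, and deviations of same-numbered −N and +E+N libraries correlated at 0.484.

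Below 44 genes, the count with Esrrb was 7 without −N replicate 2, 10 without +E+N replicate 2, +E+N replicate 3 or −N replicate 3, 11 without −E replicate 2, 16 and 17 without +E+N and −E replicate 1, 24 without −E replicate 3, and 40, 23 and 21 without −E−N replicates 1, 2 and 3. The count between media was 47 to 56 without any 1 library of FCS/LIF, and 71 and 67 without replicate 2 of +E+N and −N in 2i/LIF. That of FCS/LIF fell under 27 without each of its 4 libraries. The 565 became 355 and 336 without −N replicates 1 and 2, and 336 and 373 without −E replicates 2 and 3.

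Of 99 called genes named, 62 kept the call under all 9 alternatives run for single genes, and none of these alternatives reversed a called gene. Nr5a2, which was not called, had log2 fold changes between −0.15 (without −N replicate 1) and 0.050 (without +E+N replicate 1), and 0.0011 without −N replicate 3. Tbx3 was the only called gene named that lost its call with the block or with DESeq2. Limma on log2(TPM + 1) lost 21 of the calls. Leaving out +E+N replicate 1, 2 or 3 lost 10, 30 and 24, and leaving out −N replicate 1, 2 or 3 lost 18, 28 and 8. Those lost in at least 4 of these 6 fits were Gm46349, Hoxb13, Rtl8a, Rtl8b, Rtl8c, Lrp2, Snai1, Zscan4a, Zscan4e, Armcx3, Rarg, Bmp8b, Hcn2, Lgr5, Lin28a, Peg3, Synb and Tbx3. Genes with few counts are limited by depth, and 20 called genes had at most 3 counts in every library of one group.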
